A study of Apis mellifera with 12 samples.

Results

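GB49662 and GB43004, the honey bee genes that the study's ortholog lists name InR (insulin-like receptor) and PDK1, were followed in the brains of mated, CO2-treated and virgin queens. These are 2 of the 15314 genes in the deposited count table. Both were taken by their identifiers. They passed the filter of at least 10 counts summed over the 12 libraries, as did 13038 genes in all. The study had called both genes in these same queens. It reported PDK1 as higher in mated than in virgin queens and InR as lower in CO2-treated than in mated queens. The choice of these genes is therefore not independent of the differences described below.

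The insulin receptor is a receptor tyrosine kinase in the cell membrane that is activated by insulin-like peptides. The activated receptor recruits a phosphoinositide 3-kinase, whose lipid product brings PDK1 (phosphoinositide-dependent kinase) and the kinase Akt to the membrane, where PDK1 phosphorylates Akt. In insects this pathway and the connected TOR pathway link nutrition to growth, metabolism and reproduction, and in honey bees both take part in the determination of queen and worker castes.

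All 12 queens were 8-day-old Apis mellifera of Australian commercial stock, mainly of ligustica descent (the strain named in the labels), sisters reared from one colony and kept in nucleus colonies of their own, and each brain gave 1 library. The 4 mated queens had flown freely from day 6 and returned with a mating plug, and the study's dissections found developing eggs and semen in mated queens and neither in the others. The 4 CO2-treated queens were narcotised with CO2 for 10 min on day 6 and again on day 7, and the 4 virgin queens were caged with them and received no gas. Queens were sampled 2 days after the first treatment. With a single source colony, the spread between queens is a spread among sisters.

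Each library held between 12434733 and 20677514 reads counted on genes, so that the floor of 3 counts was 0.145 to 0.241 CPM (reads on a gene for every 1e+06 reads counted), which covers counting error only. One gene, GB49544, took 13.7% to 42.7% of the counts in mated queens, 1.12% to 5.02% in CO2-treated queens and 0.153% to 2.89% in virgin queens. The files do not name GB49544, which was taken here as vitellogenin, a yolk protein of the fat body. Counts were therefore normalized by TMM (trimmed mean of M-values), and the factors were 0.556 to 1.03 in mated queens, 1.09 to 1.29 in CO2-treated queens and 1.06 to 1.37 in virgin queens. CPM values below are normalized in this way unless a sentence says otherwise. Markers of neurons and glia could not be tied to identifiers of the count table, so the brain label was not checked against them.

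GB49662 was highest in mated queens and lowest in virgin queens. Its CPM was 189, 89.1, 66.6 and 42.8 in mated queens 6, 7, 4 and 1. It was 44.6, 43.1, 31.3 and 24.6 CPM in CO2-treated queens 5, 2, 7 and 1. In virgin queens 4, 6, 1 and 2 it was 22.9, 22.0, 16.8 and 7.25 CPM. All mated and all CO2-treated queens thus lay above all virgin queens, whereas mated queen 1 lay below CO2-treated queens 5 and 2. Group means were 96.8 ± 64.2 CPM in mated queens, 35.9 ± 9.59 CPM in CO2-treated queens and 17.2 ± 7.16 CPM in virgin queens (SD, n = 4 each). These levels rest on 730 to 2171 reads in mated queens, 394 to 829 in CO2-treated queens and 147 to 407 in virgin queens, with a counting error of 2.15% to 8.25%, much smaller than the spread between queens of one group.

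**Figure D1:**
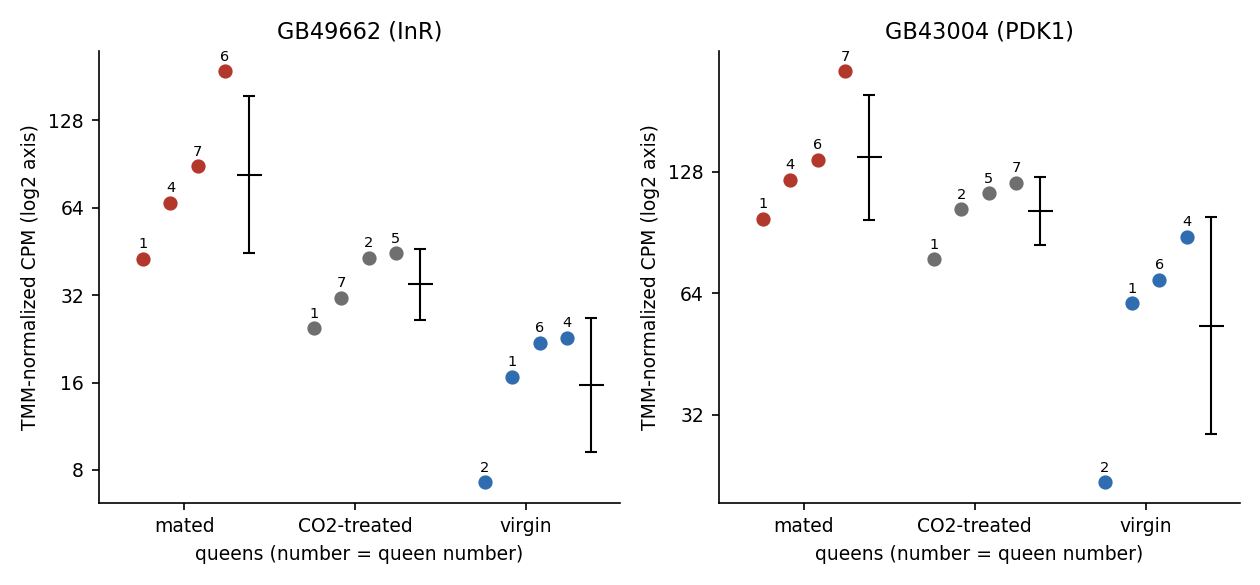
Each point is 1 queen, labelled with the number in its sample name, with TMM-normalized CPM on a log2 axis for GB49662 and GB43004 in mated, CO2-treated and virgin queens, and the bar beside each group is the mean ± SD of log2 CPM (n = 4). For both genes every mated queen lies above every virgin queen, and virgin queen 2 is the lowest point, at 7.25 CPM for GB49662 and 21.8 CPM for GB43004.

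GB43004 had the same order of group means over a narrower range. Its CPM was 227, 137, 122 and 98.0 in mated queens 7, 6, 4 and 1. It was 120, 114, 103 and 77.8 CPM in CO2-treated queens 7, 5, 2 and 1. In virgin queens 4, 6, 1 and 2 it was 88.4, 69.2, 60.5 and 21.8 CPM. The mated queens again lay above all virgin queens, but CO2-treated queen 1 fell below virgin queen 4, and 3 of the 4 CO2-treated queens were above mated queen 1. Means were 146 ± 56.3 CPM in mated queens, 104 ± 18.7 CPM in CO2-treated queens and 60.0 ± 28.0 CPM in virgin queens (SD, n = 4 each). Between 1575 and 2515 reads were counted in mated queens, 1244 to 2685 in CO2-treated queens and 442 to 1574 in virgin queens, with a counting error of 1.93% to 4.76%. In whole brains, fewer cells that express a gene and less of its RNA per cell cannot be told apart.

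GB49662 was up-regulated in mated queens compared with virgin queens. The difference was 2.49 on the log2 scale (SE 0.45), or 5.63-fold with a 95% interval of 2.86 to 11.1, and the adjusted p was 0.0212 in edgeR's quasi-likelihood test with Benjamini-Hochberg adjustment over all genes tested. At this threshold, an adjusted p of 0.05, 1.2% of the genes tested differed between mated and virgin queens and 0.951% were higher in mated queens. A rise of this size or more was fitted for 0.974% of genes. The 8 queens did not overlap, which held in this direction for 3.4% of genes. An exact two-sided permutation test of the group means gave p = 0.0286, the smallest value that 4 against 4 queens can give, and 0.0571 after Benjamini-Hochberg adjustment over the 6 comparisons of these genes. The call depended on which queens entered the fit. Without virgin queen 2, virgin queen 1, mated queen 7 or mated queen 6, the adjusted p was 0.0710, 0.0618, 0.0629 and 0.0679, while the log2 difference was 2.24, 2.48, 2.49 and 1.88. Mated queen 6 had the highest level of all queens. It was also lost, with an unchanged log2 difference of 2.49 and an adjusted p of 0.0699, when only the mated and virgin queens were fitted.

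GB43004 did not pass the threshold between mated and virgin queens. The log2 difference was 1.29 (SE 0.37), or 2.44-fold with a 95% interval of 1.41 to 4.21, with an adjusted p of 0.117 (0.00374 before adjustment) in the same quasi-likelihood test. An unadjusted p under 0.05 was reached by 15.9% of all genes in this comparison. The queens did not overlap, which held in this direction for 3.4% of genes. The exact permutation test gave p = 0.0286, the smallest value it can give (0.0571 adjusted over the 6 comparisons). This call turned with the test. Adjusted p was 0.0295 with edgeR's exact test and tagwise dispersions, 0.0152 with one common dispersion for all genes and 0.0268 with DESeq2, all at a log2 difference of 1.29. In the same order, 490, 829 and 640 genes passed in these tests between mated and virgin queens, against 157 in the quasi-likelihood test.

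**Figure D2:**
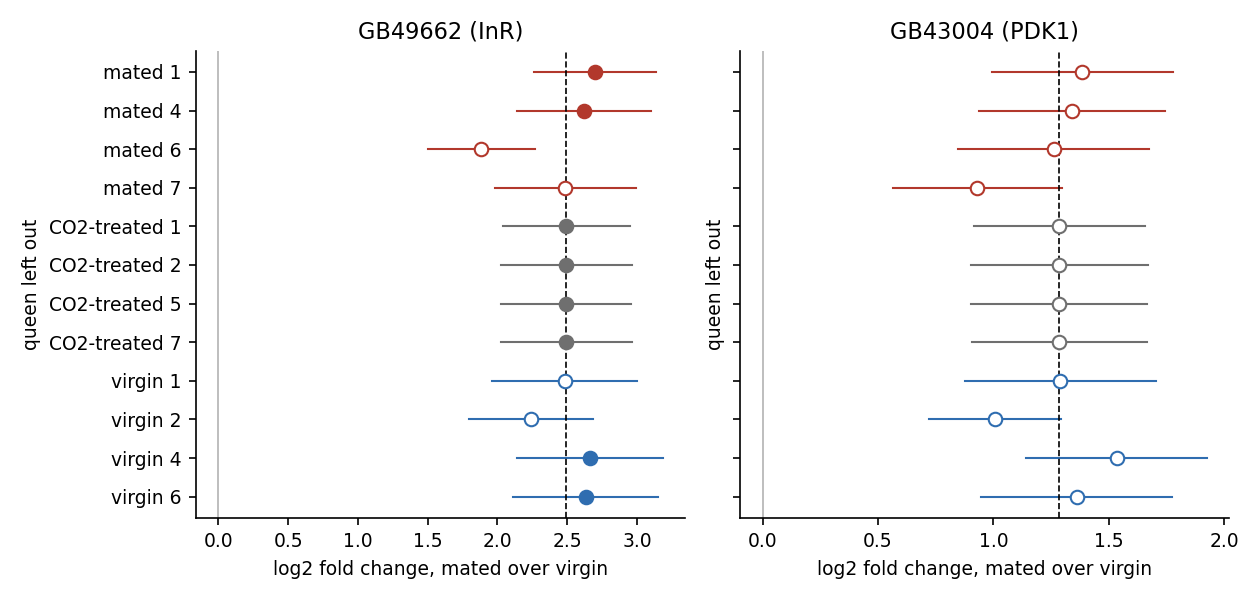
Log2 fold change of mated over virgin queens with each of the 12 queens left out in turn, for GB49662 and GB43004, with bars of 1 standard error, filled points where the adjusted p was under 0.05 and a dashed line at the fit to all 12 queens. For GB49662 the values lie between 1.88 and 2.70 and 4 points are open; for GB43004 they lie between 0.93 and 1.53 and no point is filled.

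Neither gene passed the threshold between mated and CO2-treated queens, where 0.66% of genes did (0.522% higher and 0.138% lower in mated queens). GB49662 differed by 1.43 on the log2 scale (SE 0.44, 2.69-fold with a 95% interval of 1.40 to 5.18), with an adjusted p of 0.184 in edgeR's quasi-likelihood test. Its p before adjustment was 0.00597, and 13.8% of genes had one under 0.05. The groups overlapped at mated queen 1, whereas 5.48% of genes were higher in mated queens without overlap, and the exact permutation test gave p = 0.0857 (0.103 adjusted over the 6 comparisons). Without mated queen 6 the log2 difference of GB49662 was 0.83 (adjusted p = 0.543), and without each other queen in turn it was 1.29 to 1.64. With edgeR's exact test and a common dispersion the adjusted p of GB49662 was 0.00687, and with DESeq2 it was 0.0477. Between mated and CO2-treated queens 627 and 421 genes passed in these tests, against 86 in the quasi-likelihood test. The interval for GB43004 included no difference, with a log2 difference of 0.49 (SE 0.36, 95% interval −0.28 to 1.27) and an adjusted p of 0.543. Without mated queen 7 the difference of GB43004 was 0.15 (adjusted p = 0.882). The permutation p of GB43004 was 0.2.

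Between CO2-treated and virgin queens, 0.0153% of genes passed the threshold, and neither GB49662 nor GB43004 was among them. GB49662 differed by 1.06 on the log2 scale (SE 0.44, 2.09-fold with a 95% interval of 1.09 to 4.01). Its p was 0.0297 before adjustment, a level under 0.05 that 5.81% of all genes reached, and 0.832 after adjustment in edgeR's quasi-likelihood test. The CO2-treated queens all lay above the virgin queens, as for 2.05% of genes in this direction, and the exact permutation test gave p = 0.0286 (0.0571 adjusted over the 6 comparisons). For GB43004 the log2 difference was 0.79 (SE 0.36, 95% interval 0.01 to 1.57), with an adjusted p of 0.832 in the quasi-likelihood test and an exact permutation p of 0.0571. It was 0.51 without virgin queen 2. Virgin queens serve both here and in the comparison with mated queens, and mated queens in a pair of comparisons, so the 3 differences of a gene are not independent of each other.

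The study asked whether narcosis brings the brain of a virgin queen towards that of a mated queen, and the position of the CO2-treated queens was therefore compared with the midpoint of the other groups on the log2 scale. CO2-treated queens stood −0.18 (SE 0.38) from this midpoint for GB49662 and 0.15 (SE 0.31) for GB43004. With adjusted p of 0.923 and 0.926 in edgeR's quasi-likelihood test, neither distance could be told from 0, as for all but 0.023% of genes. The 95% intervals ran from −0.99 to 0.63 for GB49662 and from −0.52 to 0.82 for GB43004. This does not place the CO2-treated queens at the midpoint. For GB43004 the 95% interval between mated and CO2-treated queens, −0.28 to 1.27, also included 0. In a joint test of the 3 groups the adjusted p was 0.0301 for GB49662 and 0.219 for GB43004, at a threshold that 1.14% of genes passed. A full grading, with every mated queen above every CO2-treated queen and every CO2-treated queen above every virgin queen, was found in 8 of the 13038 genes, and neither GB49662 nor GB43004 was one of these.

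The fold changes moved with the scaling of the libraries, as the plot of fold changes under each scaling shows. When libraries were scaled by total counts, without TMM factors, the median log2 difference of all genes was −0.79 between mated and virgin queens, −0.67 between mated and CO2-treated queens and −0.10 between CO2-treated and virgin queens, against −0.08, −0.03 and −0.02 with TMM. On that scale GB49662 differed by 1.65 between mated and virgin queens (adjusted p = 0.0209, edgeR quasi-likelihood test), which was 2.44 above the median of all genes. In that comparison 4398 of the 13038 genes tested passed the threshold with total counts, against 157 with TMM. GB43004 differed by 0.55 between mated and virgin queens (adjusted p = 0.165), 1.34 above the median. Between mated and CO2-treated queens GB49662 differed by 0.65 on this scale (adjusted p = 0.150), 1.31 above the median. The difference of GB43004 between mated and CO2-treated queens turned to −0.19, which was 0.48 above the median. In CPM of total counts GB43004 ranged from 76.2 to 150 in mated queens, from 100 to 135 in CO2-treated queens and from 29.9 to 101 in virgin queens, so that the mated and virgin queens overlapped. GB49662 did not overlap between them on the same scale, with 43.9 to 105 CPM in mated queens and 9.94 to 26.2 CPM in virgin queens.

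**Figure D3:**
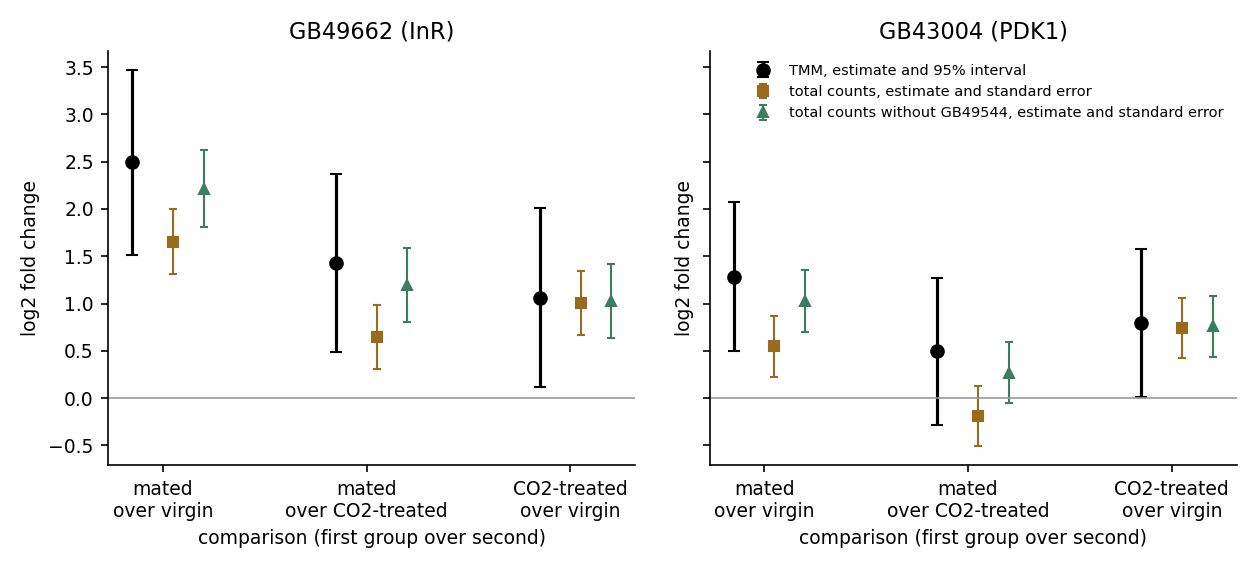
Log2 fold changes of GB49662 and GB43004 in the 3 comparisons, first group over second, with TMM (circles, 95% interval), with total counts (squares, standard error) and with total counts after GB49544 was removed (triangles, standard error). The squares are lowest in both comparisons with mated queens, and in GB43004 the square for mated over CO2-treated queens lies below 0, at −0.19.

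The ratio of the 2 genes was compared within each queen, because a scaling factor cancels in it. GB49662 amounted to 138% of the CPM of GB43004 in mated queen 6 and to 39.2% to 54.4% in the other mated queens. It amounted to at most 41.7% in CO2-treated queens and 25.9% to 33.3% in virgin queens. Gene length enters these percentages, so they compare queens and not the levels of the genes. The log2 ratio was 1.01 higher in mated than in virgin queens, without overlap between their queens, with an exact permutation p of 0.0286 (0.0857 adjusted over the 3 comparisons). The corresponding difference was 0.81 for mated over CO2-treated queens (exact permutation p = 0.0857) and 0.20 for CO2-treated over virgin queens (exact permutation p = 0.314).

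Across the 12 queens, log2 CPM of the genes had a Pearson r of 0.862 and a Spearman rho of 0.944. After each group's mean was subtracted r was 0.708. These are descriptions over 12 libraries that share the group differences and the TMM factors. Among the 10296 genes whose average log2 CPM reached 1, GB43004 held rank 181 by r with GB49662, and the 5 genes with the highest r were GB53865, GB53965, GB53060, GB54507 and GB45193.

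GB53865 followed GB49662 more closely than any other gene ranked, with r = 0.998 over the 12 queens and 0.994 after group means were subtracted. The study's lists give it no fly ortholog, and no role can be stated. Between 2.66 and 3.28 reads were counted on GB53865 for each read on GB49662, with a median of 2.81, whereas the reads on GB43004 for each read on GB49662 varied from 0.725 to 3.87. GB53865 averaged 295 CPM in mated queens, 99.0 CPM in CO2-treated queens and 48.8 CPM in virgin queens. It rose in mated compared with virgin queens by 2.60 on the log2 scale (SE 0.49, adjusted p = 0.0234, edgeR quasi-likelihood test). Whether GB53865 lies near GB49662 in the genome was not analysed here.

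**Figure D4:**
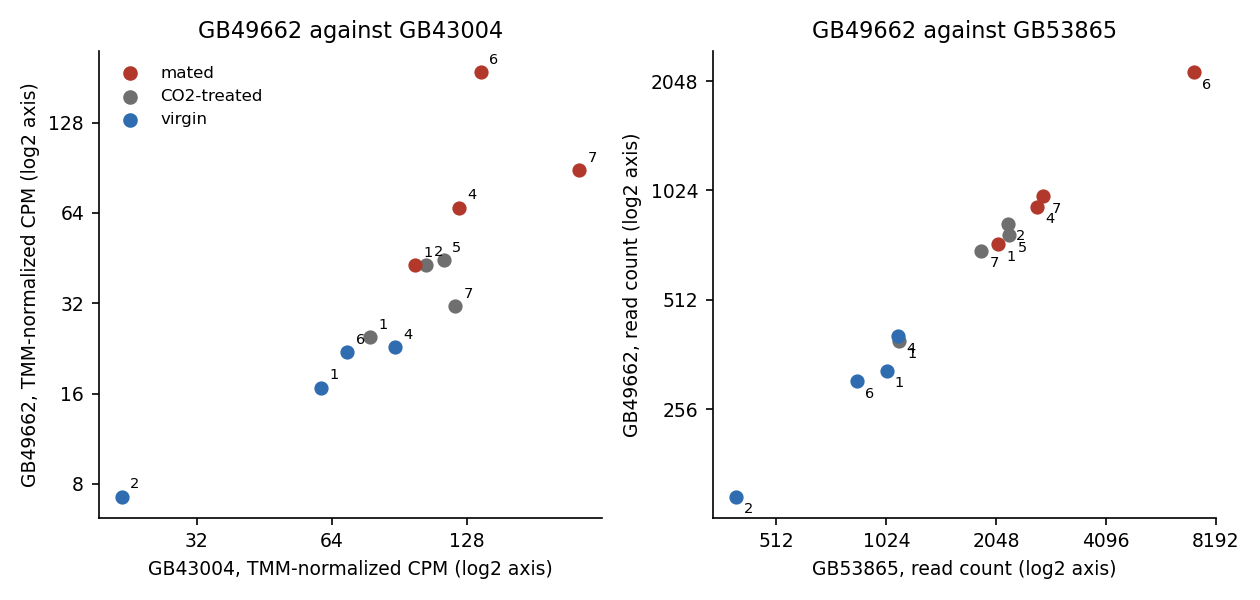
Left, GB49662 against GB43004 in TMM-normalized CPM; right, read counts of GB49662 against GB53865; each point is 1 queen with its number, mated, CO2-treated or virgin by colour, and all axes are log2. Mated queen 6 stands above the other queens on the left, whereas on the right all 12 queens lie close to a line of 2.66 to 3.28 reads on GB53865 for each read on GB49662.

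Of the other genes most like GB49662, GB53965 (r = 0.962, no fly ortholog given) and GB45193 (r = 0.956, ortholog CG9547) also rose in mated compared with virgin queens. Their log2 differences were 2.26 (SE 0.45, adjusted p = 0.0284) and 1.88 (SE 0.37, adjusted p = 0.0284) in edgeR's test. GB53060 (r = 0.961, and 0.976 after group means were subtracted) did not pass the threshold. Its difference was 1.04 (SE 0.31, adjusted p = 0.133) in the same test. All genes most like GB49662, GB53865 included, were chosen by r over all queens, which takes in the group differences. Their rise in mated queens is therefore not independent of that of GB49662. GB54507 (r = 0.958) is the ortholog of RfaBp, which in flies encodes the main lipid-carrying protein of the hemolymph and is made in the fat body. It averaged 17058 CPM in mated queens, 7036 CPM in CO2-treated queens and 4789 CPM in virgin queens, with a log2 difference of 1.83 between mated and virgin queens (adjusted p = 0.0717). The genes most like GB43004 were GB49335, GB48836, GB48052, GB43203 and GB43712, with r of 0.951 to 0.961. None of these passed the threshold in any of the 3 comparisons, and their log2 differences between mated and virgin queens were 0.64 to 1.53.

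The study placed GB49662 under the term response to organic substance, in a list of genes chosen on these same queens, so that the direction of the list is not independent evidence. Of its 7 other genes none passed the threshold between mated and virgin queens, which 1.2% of all genes passed, with a median log2 difference of 1.28 against −0.08 for all genes. One of the 7 fell in mated compared with CO2-treated queens, as did 0.138% of all genes. This was GB44263, the ortholog of CG7097, a protein kinase, with 24.3 to 32.1 CPM in mated queens and 46.5 to 73.4 CPM in CO2-treated queens (log2 difference −1.20, SE 0.22, adjusted p = 0.0260, edgeR). Its virgin queens had 19.7 to 38.1 CPM. None of the 7 passed between CO2-treated and virgin queens, against 0.0153% of all genes. GB51741, ortholog of the peptidoglycan receptor PGRP-SA of the Toll pathway, had a log2 difference of 2.03 between mated and virgin queens (adjusted p = 0.142).

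Insulin signalling governs the handling of sugars, and 13 genes of the study's starch, sucrose and glycolysis terms, also chosen on these queens, were set beside the receptor. Between mated and virgin queens 3 rose and 1 fell (0.951% and 0.253% of all genes), with a median log2 difference of 1.73, and none passed in the other comparisons. The rises were in GB43575 (Treh, the enzyme that splits trehalose, the blood sugar of insects), GB49649 (CG11876) and GB45758 (Tps1, which makes trehalose). GB43575 had 331 to 1272 CPM in mated queens and 12.4 to 139 CPM in virgin queens, a log2 difference of 3.78 (adjusted p = 0.0284). GB45758 had 275 to 749 CPM in mated queens and 83.5 to 214 CPM in virgin queens, a log2 difference of 1.73 (adjusted p = 0.0378). The fall was in GB51751 (CG15117), with a log2 difference of −1.66 (adjusted p = 0.0284). GB47079, the hexokinase ortholog Hex-A, had a log2 difference of 1.29 (adjusted p = 0.101).

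Other members of the insulin and TOR pathways could not be tied to identifiers of the count table and were not analysed here. The RefSeq accession that the study lists for GB49662 belongs to LOC413596, a protein-coding gene of the Amel_HAv3.1 assembly. That locus overlaps the long non-coding RNA gene LOC102656472, and whether reads were counted by strand is not given in the sources used here, so reads of the 2 genes may not have been told apart. Identifiers next to those of both genes in numerical order, GB49660, GB49661, GB49663, GB49664, GB43005 and GB43006, did not pass the threshold in any comparison. GB43002 and GB43003 had too few counts to be tested.

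By group means, markers of the fat body and hemolymph were highest in mated queens, as both genes were. The summed CPM of 3 fat body and hemolymph markers (GB49544 and a pair of hexamerin genes) was 133435 to 772236 in mated queens, 8740 to 45169 in CO2-treated queens and 1172 to 27296 in virgin queens. GB49544 made up nearly all of this sum, with a mean of 431490 CPM in mated queens against 1095 for GB51698 and 66.8 for GB51697. The hexamerin gene GB51697 overlapped between groups, with 14.9 to 136 CPM in mated, 6.19 to 29.8 in CO2-treated and 13.8 to 24.9 in virgin queens. Its adjusted p between mated and virgin queens was 0.192 (edgeR). The other hexamerin gene, GB51698, rose in mated compared with virgin queens by 4.78 on the log2 scale (adjusted p = 0.0212, edgeR), while GB49544 differed by 4.98 (adjusted p = 0.0836). The order of mated queens in the share of GB49544, namely 6, 7, 4 and 1, was also their order in GB49662. Mated queen 6, at 42.7%, was highest in both. The orders differed within the other groups. CO2-treated queens ranked 7, 2, 5 and 1 by GB49544 share and 5, 2, 7 and 1 by GB49662. Virgin queens ranked 6, 4, 1 and 2 by that share and 4, 6, 1 and 2 by GB49662. GB43004 was highest in mated queen 7, at 32.9% GB49544. The 2 hemocyte markers Hml and srp summed to 843 to 2647 CPM in mated queens, 775 to 3328 CPM in CO2-treated queens and 319 to 1446 CPM in virgin queens. The 8 muscle markers summed to 277 to 3992 CPM in mated queens, 278 to 1192 CPM in CO2-treated queens and 217 to 2757 CPM in virgin queens. The 7 photoreceptor markers all had a negative fitted log2 difference between mated and virgin queens. They summed to 65.8 to 236 CPM in mated queens, 82.6 to 177 CPM in CO2-treated queens and 153 to 821 CPM in virgin queens. No marker of these lists was at 0 in any queen, but GB50034 (Rh2) fell to 0.087 CPM in a mated queen, below the floor of 3 counts. Only GB51698 among these markers passed the threshold, and only between mated and virgin queens. The part of fat body, hemocyte, muscle or retina RNA in the differences of GB49662 and GB43004 was not tested.

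**Figure D5:**
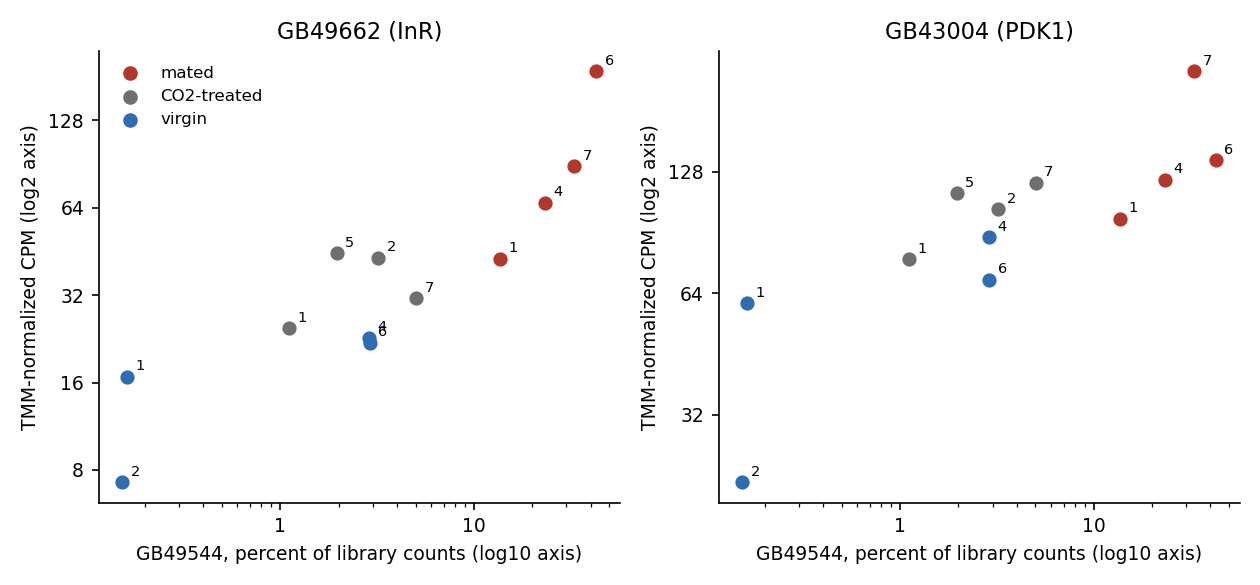
TMM-normalized CPM of GB49662 and GB43004 (log2 axis) against the percent of each library's counts taken by GB49544 (log10 axis), 1 point per queen with its number and mated, CO2-treated or virgin by colour. The mated queens lie at 13.7% or more of GB49544 and all other queens at 5.02% or less, and virgin queens 1 and 2, under 0.2%, have the lowest levels of both genes.

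The sample names of mated queen 1, virgin queen 1 and CO2-treated queens 1 and 2 carry the suffix br, whose meaning is not given in the sources used here. Among the 3 mated and 3 virgin queens without it, mean log2 CPM of GB49662 was 2.74 higher in mated queens, and between the single queens with it 1.35 higher. For GB43004 the same differences were 1.61 without the suffix and 0.69 with it. Which queens shared a sequencing lane is not given in the sources used here either.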

How the data were processed

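RNA from single brains was sequenced as 50-base single-end reads. Per the study's methods, the authors trimmed reads with Trimmomatic, removed ribosomal reads with SortMeRna, aligned the rest with TopHat to assembly 4.5 of the honey bee genome and counted them with SAMtools idxstats. Their versions are not given in the sources used here. The authors deposited raw read counts per gene and library, without normalization, and these counts were used. A second deposited table standardizes the same counts and was not used. No sequence is shown, since neither gene could be matched to a sequence of the genome build of the files.

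The analysis of counts used edgeR 4.0.16 (R 4.3.3). Genes with at least 10 counts over the 12 libraries were kept and normalized by TMM, and one quasi-likelihood model with 3 groups took in all queens (9 residual degrees of freedom) and was tested by its F statistic. Benjamini-Hochberg adjustment ran over all 13038 genes, with a threshold of 0.05. Standard errors restate the F statistic. The exact permutation tests were run over the 70 splits of 4 against 4 queens on log2 CPM (prior count 2). Likeness was Pearson's r of log2 CPM. Alternatives were other tests, including DESeq2 1.42.0, normalizations, filters, a fit to 2 groups, the queen number as a block, the name suffix as a term, and 12 fits without one queen each. The genes named are both members, the 5 genes most like each, the neighbouring identifiers, and the gene lists. The members and lists were chosen with earlier results of these data known, and the marker identifiers come from lists of genes called in these queens. Tables and figures used Python 3.11.15, numpy 2.4.6, pandas 2.3.3, scipy 1.17.1 and matplotlib 3.10.9.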

Additional observations from a re-analysis of the deposited data

How the results depend on the processing

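Across 15 alternatives of test, scaling, filter, samples and added terms, GB49662 stayed higher in mated than in virgin queens, at 1.65 to 2.50 on the log2 scale, and passed the threshold in 14; it was lost (2.49, adjusted p = 0.0699) when only those groups were fitted. Leaving out each queen gave 1.88 to 2.70, and the call held in 4 of the 8 fits without a mated or virgin queen. GB43004 passed between mated and virgin queens with edgeR's exact test (1.29, adjusted p = 0.0295 with tagwise dispersions and 0.0152 with a common dispersion) and with DESeq2 (1.29, adjusted p = 0.0268). GB49662 passed between mated and CO2-treated queens with a common dispersion (1.43, adjusted p = 0.00687) and with DESeq2 (1.45, adjusted p = 0.0477). In these comparisons more genes of the whole table passed in these tests than in the main one, and why the tests differ was not tested. Scaling by total counts turned GB43004 between mated and CO2-treated queens to −0.19 (adjusted p = 0.633) and the distance of CO2-treated queens from the midpoint for GB49662 to 0.18; without each queen in turn that distance ran from −0.31 to 0.12. With the queen number as a replicate block, GB49662 differed by 2.27 (adjusted p = 0.0482) and GB43004 by 1.05 (adjusted p = 0.238) between mated and virgin queens. Between mated and CO2-treated queens the block gave 0.90 (adjusted p = 0.664) for GB49662 and 0.14 (adjusted p = 0.936) for GB43004, and no call of either gene changed. Same-numbered queens correlated at a mean of 0.173 over 7 pairs, from −0.28 to 0.51. The pairs of queens numbered 1, whose names all carry the suffix br, had 0.51, 0.40 and 0.098. The other same-numbered pairs ran from −0.28 to 0.36. Queens of different numbers and groups correlated at a mean of −0.029 over 41 pairs, from −0.63 to 0.39. The main fit did not take the numbers to pair the queens, and whether they do was not tested. The suffix as a term changed no call either.

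The number of genes past the threshold was 157 between mated and virgin queens (44 to 4398 over the 15 alternatives, 28 to 279 with a queen left out), 86 between mated and CO2-treated queens (10 to 627, and 18 to 179) and 2 between CO2-treated and virgin queens (0 to 151, and 1 to 2). Of the 5 genes most like GB49662, 2 remained with Spearman's rho and 2 with deviations from group means; for GB43004 these numbers were 0 and 2. Counting error of both genes was smaller than the spread between queens; other technical error was not measured.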
